A study of Mus musculus with 8 samples.

Results

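The AP-1 genes described here are 9 genes of mouse cortical neurons, Fos, Fosb, Fosl1, Fosl2, Jun, Junb, Jund, Atf3 and Maff, taken as a named list from 21887 protein-coding genes. Every SMC1 peak within 50 kb of the body of each gene, in RefSeq positions on GRCm38, was collected. This gave 7 of the 1684 peaks found after NMDA and 24 of the 12359 peaks found at rest. SMC1 is a core subunit of cohesin, and its binding was mapped by chromatin immunoprecipitation and sequencing (ChIP-seq). The NMDA group consisted of wild-type cortical neurons from E16 Swiss-Webster embryos, at day 13 in vitro, that were bathed in 50 µM NMDA for 10 min and then kept in drug-free medium for 50 min. The resting group consisted of the same kind of cultures, with the treatment given as none. Each group had 2 biological ChIP replicates and 2 input samples. The growth protocol also names etoposide, which is in no sample's treatment label, and whether the replicates came from separate litters is not stated. Cultures of this kind can hold glia beside neurons, and bath NMDA reaches every cell. SMC1 peaks do not measure expression, so the labelled cell type could not be checked against marker genes.

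AP-1 is a family of dimeric transcription factors that bind DNA through a basic leucine zipper. Fos proteins pair with Jun proteins, Jun proteins also pair with each other, and Atf3 and the small Maf protein Maff belong to the wider zipper family. In neurons, calcium entry through NMDA receptors induces Fos, Fosb and Junb within minutes to hours through factors already present, such as CREB and SRF, while Jund is broadly expressed without stimulation. Cohesin extrudes chromatin loops and can bring distant enhancers near promoters.

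The authors deposited 1 list per condition of peaks found in both replicates at an irreproducible discovery rate (IDR) up to 0.05. Strength here is the authors' −log10 p of the peak caller, summed over both replicates. It grows with library depth, which is unknown from these files, so a strength is read as a percentile, the share of peaks of the same list that are weaker. Median strength was 23.0 in the NMDA list and 30.2 in the resting list, and the lowest listed value was 17.9 in the NMDA list and 16.7 in the resting list. A gene without a listed peak may still bind SMC1 below these limits. With 1 list per condition, no difference between NMDA and rest was tested.

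The promoters that SMC1 covered are shown first, because they are where peaks met the start of an AP-1 gene. RefSeq windows from 250 bases before to 50 bases after the start were available for 8 of the 9 genes, on GRCm38.p6. An NMDA peak overlapped such a window in 1 of 8 genes, Jun (5.00% of protein-coding genes with a window). A resting peak overlapped one in 4 of 8, Fos, Jun, Fosl2 and Atf3 (12.7% of protein-coding genes with a window). None of these peaks, NMDA or resting, had its summit inside a window, so the windows are not where the signal was highest. The 4 windows follow, 5′ to 3′ on the strand of the gene. Fos lies at chr12:85473640-85473939 on the plus strand, Jun at chr4:95052173-95052472 on the minus strand, Fosl2 at chr5:32136222-32136521 on the plus strand, and Atf3 at chr1:191183284-191183583 on the minus strand. Capitals mark matches on either strand to TGACG, the core of the cAMP response element bound by CREB, to TGACATCA, an octamer known from the Jun promoter as a site for Jun and ATF2 dimers, and to CCCTC, a core of CTCF sites (GAGGG on the other strand).
Fos: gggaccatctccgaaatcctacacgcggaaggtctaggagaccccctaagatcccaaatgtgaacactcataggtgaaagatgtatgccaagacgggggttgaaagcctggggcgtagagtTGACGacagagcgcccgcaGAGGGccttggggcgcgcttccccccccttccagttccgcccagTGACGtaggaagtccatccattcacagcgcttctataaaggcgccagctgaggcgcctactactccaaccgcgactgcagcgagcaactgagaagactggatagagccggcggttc
Jun: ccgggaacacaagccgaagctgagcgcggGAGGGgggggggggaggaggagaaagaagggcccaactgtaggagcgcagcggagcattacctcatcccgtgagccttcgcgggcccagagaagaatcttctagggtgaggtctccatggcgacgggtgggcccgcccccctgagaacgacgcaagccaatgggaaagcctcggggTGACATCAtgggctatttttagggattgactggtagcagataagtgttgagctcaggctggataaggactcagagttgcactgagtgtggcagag
Fosl2: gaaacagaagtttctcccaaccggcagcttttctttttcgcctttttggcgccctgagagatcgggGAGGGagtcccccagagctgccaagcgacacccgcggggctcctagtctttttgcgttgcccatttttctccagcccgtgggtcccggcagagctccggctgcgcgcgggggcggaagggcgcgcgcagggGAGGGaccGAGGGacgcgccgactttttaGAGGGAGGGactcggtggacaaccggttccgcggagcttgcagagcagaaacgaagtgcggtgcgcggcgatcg
Atf3: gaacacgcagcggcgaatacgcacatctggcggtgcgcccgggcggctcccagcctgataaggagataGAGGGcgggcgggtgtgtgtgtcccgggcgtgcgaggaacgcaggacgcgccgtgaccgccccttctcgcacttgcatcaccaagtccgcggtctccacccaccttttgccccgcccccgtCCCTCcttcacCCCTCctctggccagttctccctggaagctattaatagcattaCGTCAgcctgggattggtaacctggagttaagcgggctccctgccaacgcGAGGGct

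The Fos window held TGACG at 129 and at 66 bases before the start, and the Atf3 window held it on the other strand at 7 bases before the start. The Jun window held TGACATCA at 45 bases before the start and no TGACG. The Fosl2 window held neither of them, and its 5 CCCTC matches include a pair on the other strand that share 1 base. Over all 32851 RefSeq windows, 20.8% held TGACG, 3.62% TGACATCA and 66.0% CCCTC. The full cAMP response element TGACGTCA, which contains TGACG on each strand, was in 1.79% of windows, the AP-1 site TGACTCA in 5.20% and the CArG box, to which SRF binds, in 1.63%. None of these last 3 was in the 4 printed windows. Among all 10 windows of AP-1 genes, TGACG was found in 6, of Fos, Fosb, Junb, Atf3 and Maff, and TGACATCA in 2, of Jun and Maff. No listed peak covered the windows of Fosb, Junb and Maff. CCCTC was found in 8 of the 10, TGACGTCA in 1, a window of Maff, and neither TGACTCA nor the CArG box in any. Sequence more than 250 bases before or 50 bases after a start was not searched. A gene without a match here, such as Fos for the CArG box, may therefore hold one outside its window. TGACG and TGACATCA on their own were added to the search after the windows had been read. A match is letters only, and says nothing of which factor binds.

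The first question was how often SMC1 lies near AP-1 genes in each condition. Most did have SMC1 nearby: 6 of 9 had an NMDA peak within 50 kb (16.9% of all protein-coding genes), and 8 of 9 had a resting peak (62.4%). The 6 with an NMDA peak, Fos, Fosb, Fosl1, Jun, Junb and Jund, also had a resting peak, while 15.4% of all protein-coding genes had a peak in both lists. Among genes with a resting peak within 50 kb, 6 of 8 AP-1 genes and 24.6% of all protein-coding genes had 1 in the NMDA list too. Fosl2 and Atf3 had resting peaks only, and Maff had none in either list. Exact 95% binomial intervals (Clopper-Pearson), for counting error alone, were 29.9 to 92.5% for the 6 of 9 and 51.8 to 99.7% for the 8 of 9. The genes are a chosen list and not a random sample, so these intervals are no test against all protein-coding genes. At an IDR limit of 0.01, 2 of 9 AP-1 genes, Jun and Jund, had an NMDA peak (3.88%), 7 a resting peak (43.6%) and 2 a peak in each list (3.37%), which at Jund were different sites. With a resting list as short as the NMDA list, 3 of 9, Fosb, Jun and Jund, had a resting peak (14.0%), and the same 3 had a peak in each list (6.32%).

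The resting share was reached close to the genes and the NMDA share partly farther out. Within 2 kb, 3 of 9 genes had an NMDA peak (7.21% of all protein-coding genes) and 8 of 9 a resting peak (28.6%). The counts were the same within 10 kb, where the shares over all protein-coding genes were 8.94% for NMDA and 38.2% for resting peaks. The 3 genes with a close NMDA peak were Fosb, Jun and Jund. Between 10 and 50 kb, Fos, Fosl1 and Junb joined them, with NMDA peaks 10.2, 31.8 and 10.96 kb away. Those of Fos and Junb thus lay just past the 10 kb limit. Widening the distance to 100 kb added no further gene to either count, while the shares over all protein-coding genes were 24.9% for NMDA and 73.8% for resting peaks. AP-1 genes are short, from 1840 bp for Junb to 21369 bp for Fosl2. Among protein-coding genes no longer than Fosl2, 14.2% had an NMDA peak and 55.0% a resting peak within 50 kb.

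**Figure D1:**
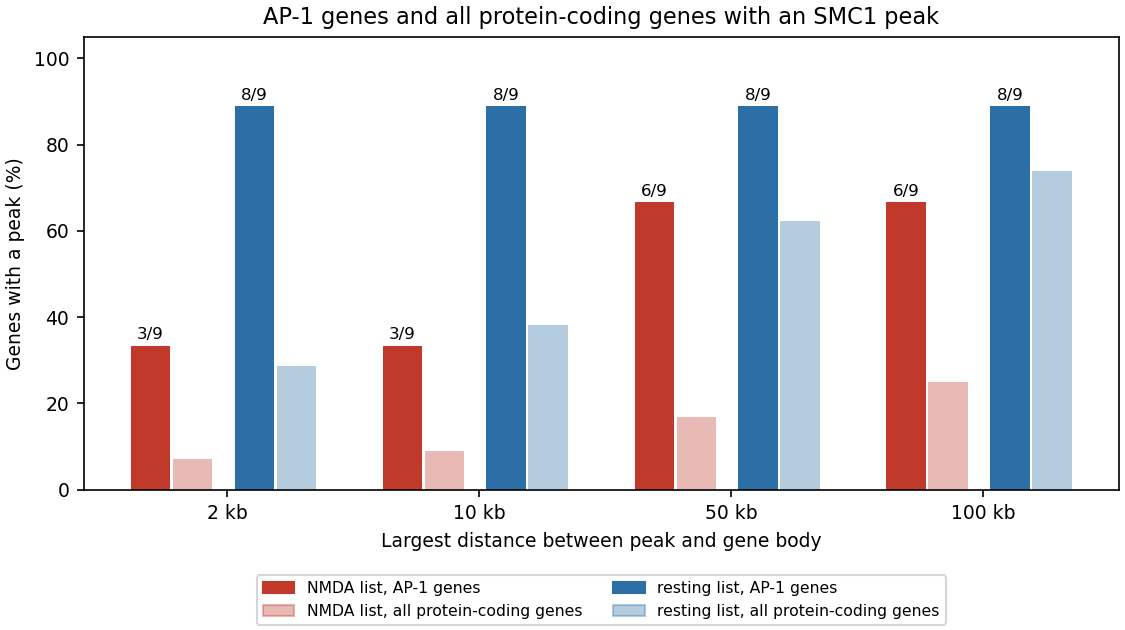
Share of genes with an SMC1 peak (vertical axis, percent) within 4 distances of the gene body, for the 9 AP-1 genes (full colour, count above the bar) and for all protein-coding genes (pale), NMDA list in red and resting list in blue. The NMDA count of AP-1 genes is 3 of 9 up to 10 kb and 6 of 9 from 50 kb, and the resting count is 8 of 9 at each distance.

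AP-1 genes had 0.778 NMDA peaks per gene within 50 kb on average, against 0.189 over all protein-coding genes, and 2.67 resting peaks, against 1.22. At most 2 NMDA peaks, at Jund, and 4 resting peaks, at Fos, Fosb and Fosl1, lay near 1 gene. The neighbourhoods differ in how crowded they are. Fosl1 has 11 other protein-coding genes within 50 kb, Junb 8, Fosb 7 and Jund 5, while Maff has 2, Atf3 1 and Fos, Fosl2 and Jun none (median over all protein-coding genes 3). In 4 of 7 NMDA peaks and 12 of 24 resting peaks, no other protein-coding gene was nearer than the AP-1 gene.

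**Figure D2:**
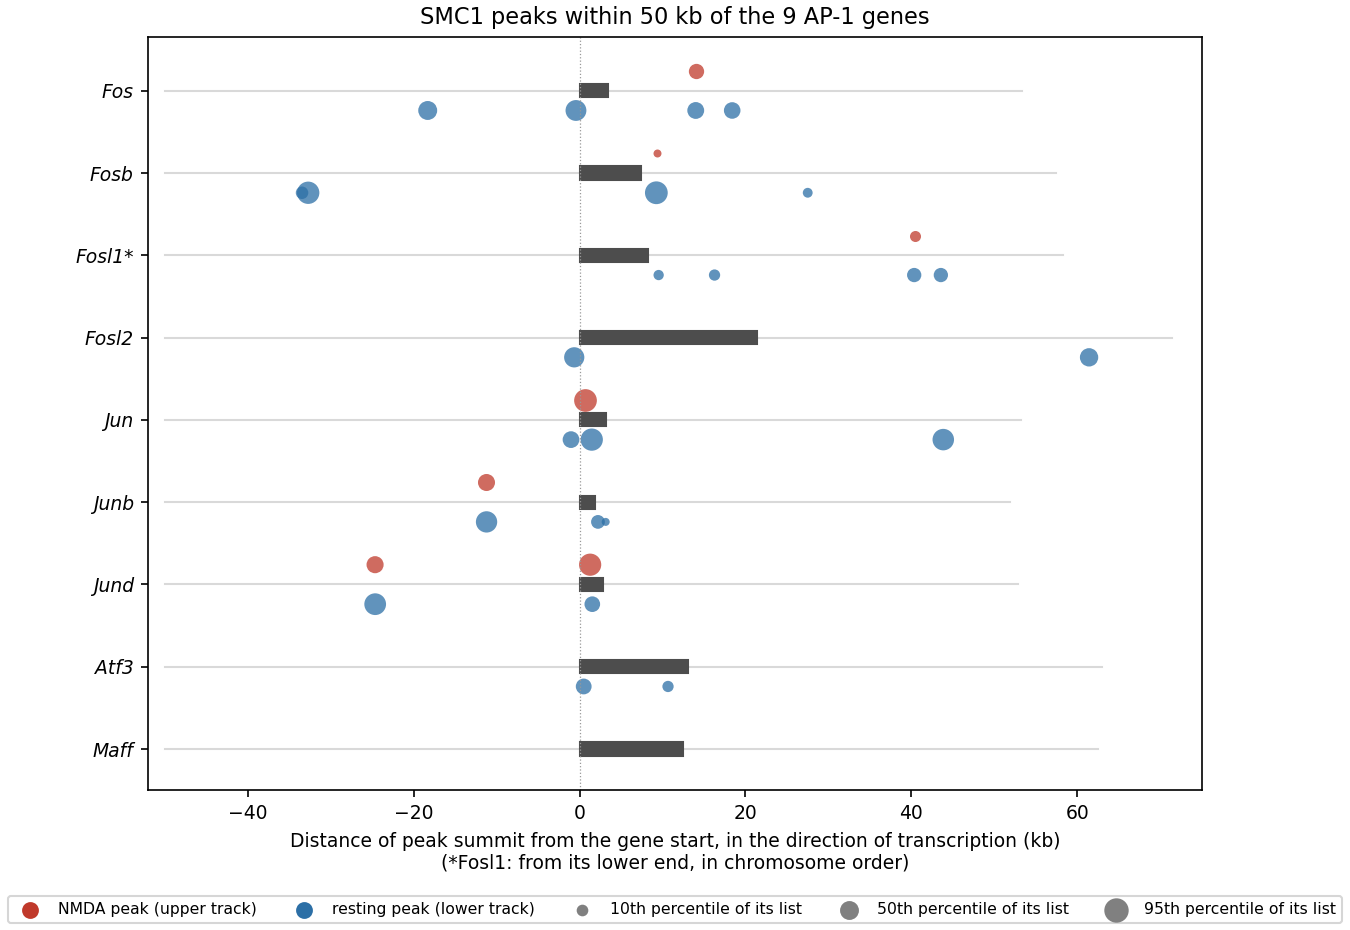
Positions of the peak summits within 50 kb of each AP-1 gene, in kb from the gene start along the direction of transcription (dark bar, gene body), with NMDA peaks above and resting peaks below each line and larger circles for higher percentiles within the list. Each of the 7 NMDA peaks stands above a resting peak, and Fosl2, Atf3 and Maff have no NMDA peak; Fosl1 is drawn in chromosome order.

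Fos, the prototype immediate early gene, is on chromosome 12 at 85473890 to 85477274 on the plus strand. The NMDA list held 1 peak, at 85487496 to 85488251, 10.2 kb past the 3′ end, with −log10 p of 9.38 and 12.5 in the replicates, at percentile 39.8 of strength. The resting list held a peak at the same place, at 85487582 to 85488212, with 13.1 and 17.3, at percentile 50.4. The summits of this pair lay 59 bp apart. The replicate ranges of the pair do not overlap, the NMDA values being lower, but values of the lists are not on a common depth. The strongest resting peak at Fos was another one, at 85473056 to 85475083, with its summit at −442 bp from the start, over the promoter printed above. It had 18.9 and 29.2 and stood at percentile 82.0, and no NMDA peak overlapped it. Further resting peaks without an NMDA peak lay 17.8 kb upstream, overlapping the gene Gm38543, with 13.2 and 23.8, and 14.8 kb downstream, with 16.2 and 13.4. Of these 4 resting sites at Fos, 1 upstream, 1 at the promoter and 2 downstream, the one 10.3 kb downstream was the one also in the NMDA list.

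Fosb, whose splice form ΔFosB accumulates with repeated stimulation, is on chromosome 7 at 19302696 to 19310118 on the minus strand. It had the strongest resting peak of all AP-1 genes, at 19300284 to 19301409, 1.29 kb past the 3′ end and overlapping the gene Gm26802. Its replicate values were 51.2 and 70.3, its summed strength was 122 and it ranked 66th of 12359. The NMDA peak inside its bounds, at 19300469 to 19301141, had 10.6 and 8.03 and ranked 1611th of 1684. The site thus stood at percentile 4.28 in the NMDA list and 99.5 in the resting list, although the summits lay 56 bp apart. Another strong resting peak, 32.1 kb upstream at 19342241 to 19343260, had 39.4 and 35.9 (percentile 95.4) and no NMDA peak over it. That site is 807 bp from Ercc1, a nucleotide excision repair gene, and a weaker resting peak next to it, with 8.22 and 14.7, is 278 bp from Ercc1. A resting peak with 7.25 and 12.8 lay 19.7 kb downstream overlapping Rtn2, a reticulon gene. No listed peak of either condition overlapped the Fosb gene itself or its promoter window.

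Fosl1, which encodes the Fos-related protein FRA1, is on chromosome 19 at 5447698 to 5455938. Its peaks were weak and all lay on the side of higher coordinates, among other genes. The NMDA peak, at 5487747 to 5488682, 31.8 kb away over Mus81, a DNA endonuclease gene, had 9.26 and 10.6 (percentile 16.4). The resting peak at that place, at 5487764 to 5488420, had 14.7 and 10.6 (percentile 33.8). The remaining 3 resting peaks overlapped Ccdc85b (832 bp from Fosl1, replicate values 11.8 and 8.65), Fibp (7.66 kb away, 7.25 and 14.2) and Cfl1, the gene of the actin-severing protein cofilin (34.7 kb away, 12.97 and 12.3). None of the 5 peaks near Fosl1 passed the median of its list, and each overlapped a gene other than Fosl1.

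Fosl2, the gene of FRA2, is on chromosome 5 at 32136472 to 32157840 on the plus strand. No NMDA peak lay within 50 kb, and the nearest was 522 kb away. At rest its promoter lay in a peak at 32134791 to 32136891, with its summit at −651 bp from the start, with 15.7 and 28.1 (percentile 76.5). A resting peak 39.9 kb downstream had 25.2 and 9.67 (percentile 61.4). The promoter peak was 2101 bp wide, against a median of 644 bp for the resting list.

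Jun, the partner of Fos proteins in the classical AP-1 dimer, is on chromosome 4 at 95049036 to 95052222 on the minus strand. It had the strongest NMDA peak of the AP-1 genes, at 95049725 to 95054068, with 33.2 and 22.1. This peak ranked 17th of 1684 (percentile 99.0) and was 4344 bp wide, against a median of 1033 bp for the NMDA list. It covered 2 separate resting peaks. The first, at 95049974 to 95052543, over most of the gene and the whole promoter window, had 34.3 and 37.7 (percentile 94.6). The second, at 95052775 to 95053812, 553 bp upstream of the gene, had 19.2 and 10.8 (percentile 49.6). The NMDA summit lay 698 bp inside the gene, 764 bp from the summit of the first resting peak and 1736 bp from that of the second. The NMDA peak and both of these resting peaks also overlapped Junos, a gene that begins just upstream of Jun. A further resting peak lay 40.0 kb downstream over the gene Gm12694, at 95007980 to 95009066, with 25.5 and 29.9 (percentile 87.8), and no NMDA peak overlapped it. Beyond its own NMDA peak, Jun had no other for 2693 kb.

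Junb, an early response Jun protein, is on chromosome 8 at 84976909 to 84978748 on the minus strand. Its NMDA peak, at 84989706 to 84990610, was 10.96 kb upstream and inside Hook2, a gene for a microtubule adaptor, with 13.4 and 9.86 (percentile 51.7). The resting peak over it, at 84989423 to 84990792, had 33.5 and 19.7 (percentile 86.1), with the summits 28 bp apart. Nearer to Junb the resting list held a peak that began 38 bp past the 3′ end, with 17.1 and 7.47, and another 1.16 kb past it, with 9.05 and 9.43, which is 449 bp from the peroxiredoxin gene Prdx2. Neither had an NMDA peak.

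Jund, the Jun family member that is widely expressed at baseline, is on chromosome 8 at 70697739 to 70700616 on the plus strand, far from Junb. It was the AP-1 gene with 2 NMDA peaks. The peak inside the gene, at 70698506 to 70700299, had 25.1 and 12.3 and ranked 100th of 1684 (percentile 94.1). The resting peak at the same place, at 70698441 to 70699573, had 21.2 and 6.54 (percentile 42.2), so that 1 of its replicate values was near the bottom of the resting list, with 0.202% of that column below it. The other NMDA peak, 23.9 kb upstream over Lsm4, an RNA processing gene, had 12.5 and 10.7 (percentile 52.1). The resting peak there had 16.5 and 42.3 (percentile 89.8), and the summits lay 14 bp apart. Both peaks inside Jund lie downstream of its RefSeq window. Starts that the table does not hold were not examined.

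Atf3, a stress-induced member of the wider family, is on chromosome 1 at 191170296 to 191183333 on the minus strand. It had no NMDA peak within 638 kb. Both of its resting peaks overlapped the gene. The peak at 191182393 to 191183763 reached over the promoter, with its summit 491 bp inside the gene and values of 10.4 and 17.7 (percentile 43.2). The other had its summit 10.7 kb from the start, with 7.25 and 14.2 (percentile 17.5). Maff, a small Maf protein without an activation domain of its own, is on chromosome 15 at 79346621 to 79359078 on the plus strand. The peaks nearest to it in both lists lay 102.9 kb away, with strengths of 21.6 in the NMDA list and 69.3 in the resting list. At the 50 kb limit, the farthest peaks counted were those at 40.0 kb from Jun and 39.9 kb from Fosl2, and the nearest ones left out were a resting peak 58.7 kb from Fosl1 with a strength of 21.96 and an NMDA peak 59.9 kb from Jund with 18.6.

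**Figure D3:**
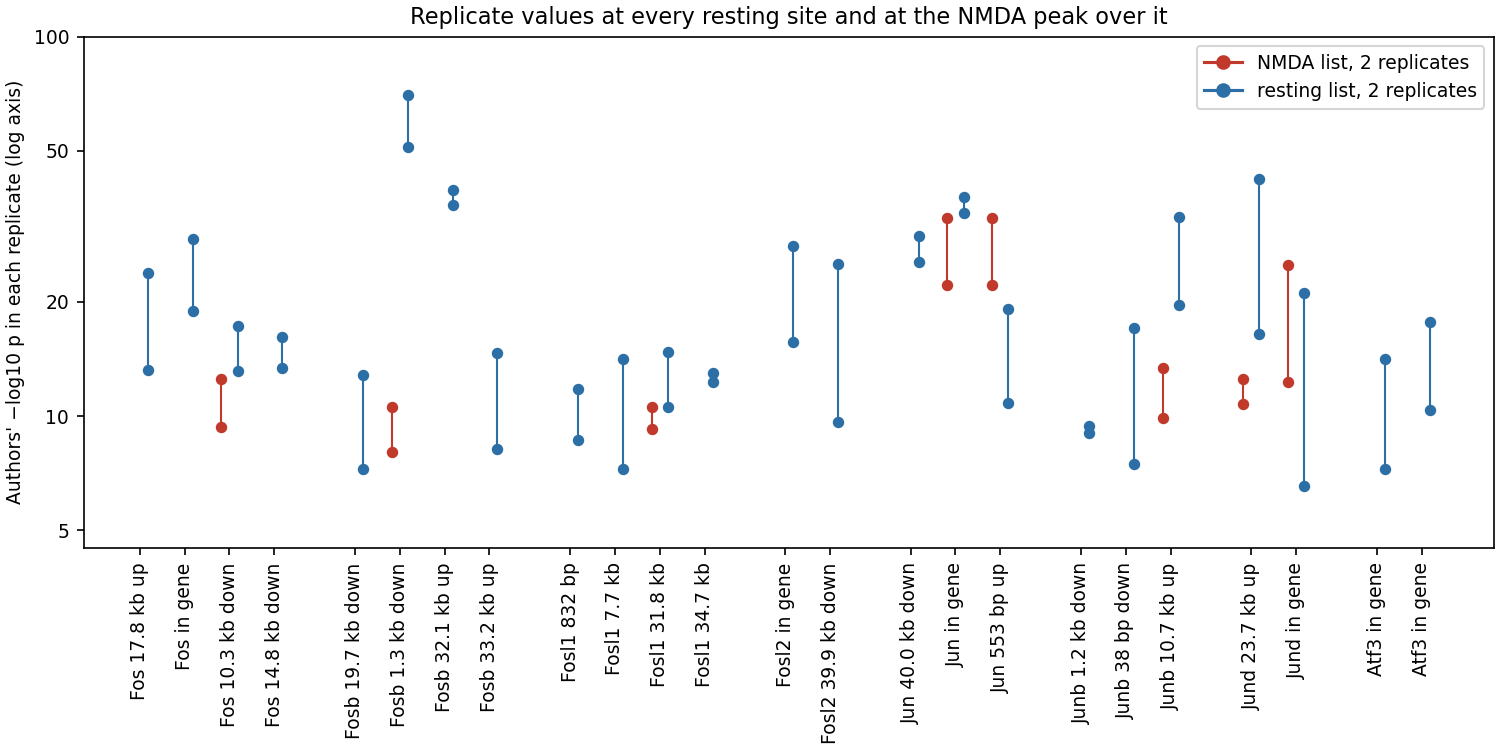
The authors' −log10 p in each of the 2 replicates (vertical axis, log scale) for the 24 resting peaks near AP-1 genes (blue, right of each pair) and the NMDA peak over them where there is one (red, left), with distance to the gene body and, where strand is known, the side. The resting peak near Fosb at 1.29 kb has the highest values, 51.2 and 70.3, against 10.6 and 8.03 for the NMDA peak there; the single NMDA peak at Jun is drawn at both resting peaks it covers.

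The next question was which resting sites near AP-1 genes were also in the NMDA list. Of the 24 resting peaks, 8 overlapped an NMDA peak (33.3%, exact 95% interval 15.6 to 55.3%), where the whole resting list had 10.7%. The interval takes peaks as independent, but 2 of the 8, both at Jun, lay under the same NMDA peak. It is therefore no test against the whole list. In the other direction 7 of 7 NMDA peaks overlapped a resting peak, where the whole NMDA list had 75.8%. In the lists as deposited, no AP-1 gene thus had a site within 50 kb in the NMDA list alone, but this depended on the list limits. At a stricter IDR limit of 0.01 for the NMDA and the resting list, 1 of 2 NMDA peaks, the one inside Jund, had no resting peak over it, and 78.6% of that NMDA list overlapped a resting peak. When the resting list was cut to the length of the NMDA list by strength, 4 of 7 NMDA peaks had none, near Fos, Fosl1 and Junb and inside Jund, and 29.5% of the NMDA list overlapped a resting peak. The share of AP-1 resting peaks under an NMDA peak was 2 of 14 at the stricter limit (4.09% of that resting list) and 3 of 5 in the shorter resting list (29.3%). The 8 resting peaks with an NMDA peak had a median strength of 41.8, from 25.3 to 122, and the 16 without one a median of 26.7, from 18.5 to 75.3. Over the whole resting list the medians were 42.8 with and 29.4 without an NMDA peak. Strength did not sort the AP-1 sites fully. The Ercc1 site upstream of Fosb (75.3), the site downstream of Jun (55.4) and the Fos promoter (48.1) had no NMDA peak, whereas the weaker site in Mus81 near Fosl1 (25.3) and the one inside Jund (27.7) did.

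The AP-1 peaks within 50 kb had a median percentile of 51.7 in the NMDA list and 49.0 in the resting list, close to the medians of all peaks within 50 kb of a protein-coding gene (50.4 in the NMDA list and 49.7 in the resting list), and 4 of 7 NMDA peaks and 11 of 24 resting peaks stood at or above the median of their list. The NMDA median depended on the distance and the list limit. Within 10 kb it was 94.1, from 3 peaks at 4.28 (Fosb), 94.1 (Jund) and 99.0 (Jun), where all NMDA peaks within 10 kb of a protein-coding gene had 50.4, and at an IDR up to 0.01 it was 84.6, from the peaks of Jun and Jund. NMDA peaks near AP-1 genes had a median width of 936 bp, against 1033 bp in the whole NMDA list, and resting peaks one of 1029 bp, against 644 bp in the whole resting list.

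The shared sites held different ranks in the lists. The lists differ in length, so a difference in percentile also depends on which other peaks each list holds. At Fosb the percentile was 95.2 points lower in the NMDA list than in the resting list, a difference that only 0.377% of all 1328 overlapping pairs of peaks exceeded downward. The median over those pairs was −11.9 points, and 10% of them lay below −59.6. Sites at Lsm4 near Jund and in Hook2 near Junb differed by −37.8 and −34.4 points, lower in the NMDA list. Of all pairs, 24.8 and 27.4% had a lower difference than these sites. The site inside Jund was 51.9 points higher in the NMDA list, and 95.3% of all pairs had a lower difference. The Jun peak was 4.42 points above its first resting peak and 49.4 points above its second. Its summit lies inside the first and outside the second, so the 49.4 points are no rank change of the upstream site. Fos downstream and Fosl1 differed by −10.6 and −17.3 points, which is close to the median pair.

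The size of these rank differences depended on the replicate at several sites. At Fosb the difference lay between −82.2 and −71.1 points over the 4 pairings of 1 NMDA with 1 resting replicate, and at Junb between −44.3 and −16.7. No pairing at Fosb thus reached the −95.2 points of the summed strength. The NMDA peak there barely passed the IDR limit, with a −log10 IDR of 1.31 where the lowest in that list was 1.3. At Jund the inner site ran from 0.634 to 94.9 points, so the replicates gave no stable size, and the Lsm4 site from −48.8 to 2.48. Fos (−48.3 to 37.8) and Fosl1 (−32.4 to 32.6) had either sign. At Jun the range was 3.40 to 6.73 points for the first resting peak. It was 32.5 to 72.7 for the second, which does not hold the NMDA summit.

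**Figure D4:**
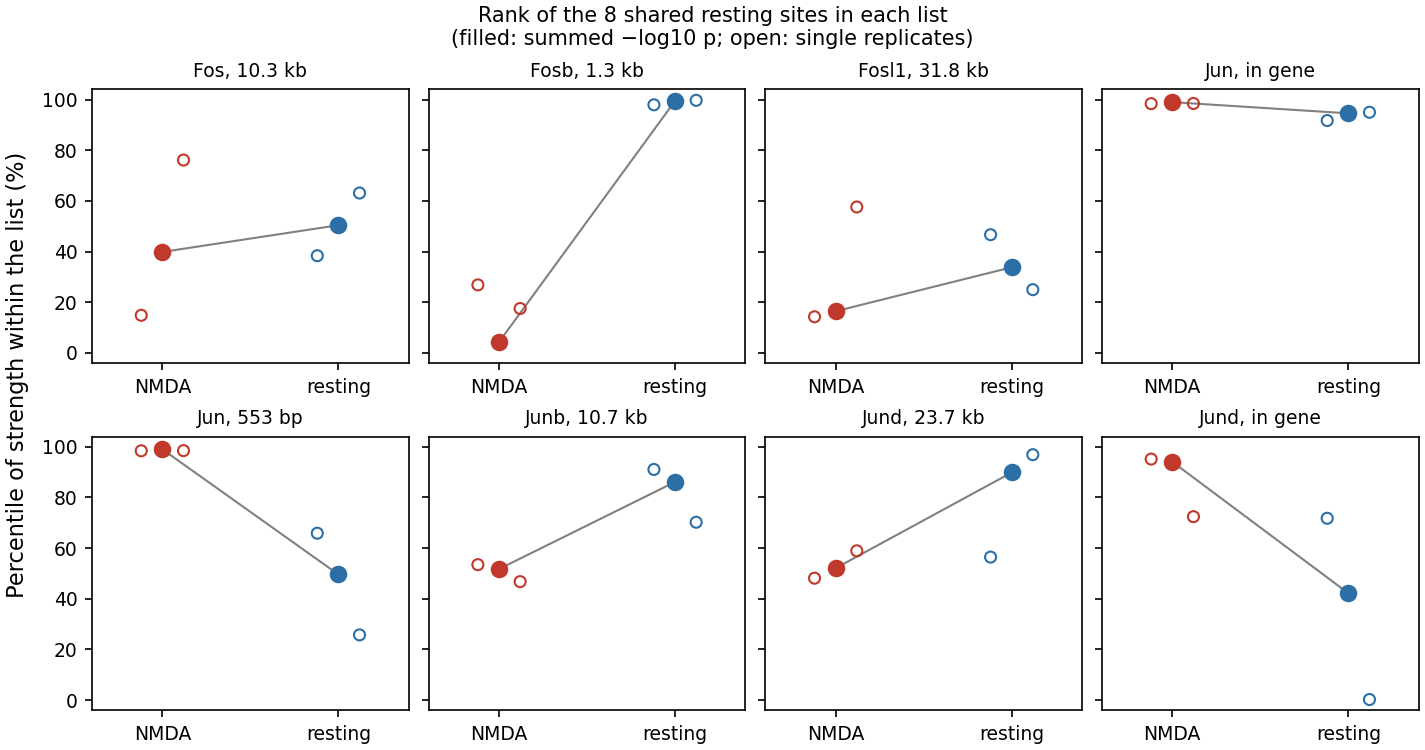
Percentile of strength within the NMDA list (left of each panel) and the resting list (right) for the 8 resting peaks near AP-1 genes that overlap an NMDA peak; filled circles use the summed −log10 p and open circles each replicate. Fosb stands at 4.28 in the NMDA list and 99.5 in the resting list, the site inside Jund at 94.1 in the NMDA list and 42.2 in the resting list, and Jun at 99.0 in the NMDA list and 94.6, for its first peak, in the resting list.

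Summit positions were close at most of the shared sites. The 8 pairs had a median gap of 90.0 bp, and all 1328 pairs one of 97.5 bp. The gap was 14 bp at Lsm4, 28 bp in Hook2, 56 bp at Fosb, 59 bp downstream of Fos and 121 bp in Mus81, and 260 bp inside Jund. The pairs at Jun stood apart with the gaps given above, since 92.4 and 99.2% of all pairs had a smaller one.

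Relative to the genes, 2 of 7 NMDA peaks overlapped an AP-1 gene, at Jun and Jund, 2 lay upstream and 2 downstream, and 1 lay beside Fosl1, whose strand is not in the table. Among the 24 resting peaks 6 overlapped an AP-1 gene, 6 lay upstream, 8 downstream and 4 beside Fosl1. Over all protein-coding genes of known strand, 36.2% of the pairs of a gene and an NMDA peak within 50 kb overlapped, 29.8% had the peak upstream and 33.9% downstream. For resting peaks these shares were 28.4, 34.1 and 37.5%. The positions at AP-1 genes (33.3% each for the 6 NMDA peaks, and 30.0, 30.0 and 40.0% for the 20 resting peaks) were near these shares. They were less near those of short genes. Among protein-coding genes no longer than Fosl2, 14.9% of resting pairs overlapped, 41.1% had the peak upstream and 44.0% downstream. For NMDA pairs of these genes, 391 of 1564 overlapped, 36.5% had the peak upstream and 38.5% downstream. The overlapping share was thus higher at the AP-1 genes of known strand than at short genes in both lists. Overlap needs no strand, and no peak overlapped Fosl1. With Fosl1 counted, 2 of 7 NMDA peaks (28.6%) and 6 of 24 resting peaks overlapped an AP-1 gene. The NMDA share was then only slightly above that of short genes. The peaks are few, and the difference was not tested. Sites within 2 kb past the 3′ end were found at Fosb in both lists and at Junb at rest. These were 1 of 8 genes with a known strand in the NMDA list (0.440% of protein-coding genes) and 2 of 8 in the resting list (3.23%). This class of site was not among the planned counts, and the site at Fosb also overlaps Gm26802. The shares are therefore a description only, and the difference was not tested.

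Partners and regulators of AP-1 were counted in the same way. Of 11 zipper partners and relatives, 5 had an NMDA peak within 50 kb and 11 a resting peak, and of 9 upstream regulators 2 had an NMDA peak and 8 a resting peak, beside the same 16.9% and 62.4% of all protein-coding genes. Jdp2, which represses AP-1 targets, and Batf, a zipper partner of Jun proteins in lymphocytes, lie next to each other and shared their strongest site, with a strength of 25.01 in the NMDA list and 45.0 in the resting list. The peaks near Batf2 (21.3 in the NMDA list, 16.9 in the resting list) were more than 20 kb away. Mafg had different sites in the lists, with 25.8 at 37747 bp in the NMDA list and 25.4 at 23904 bp in the resting list. Among the regulators, Creb1, the gene of CREB, had 35.8 in the NMDA list and 74.7 in the resting list at a site about 12 kb away. Srf had 18.1 at a peak overlapping the gene in the NMDA list and 26.4 at a site 20694 bp away in the resting list. No peak of either list lay within 50 kb of Elk1, which encodes a partner of SRF.

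For the AP-1 genes with the strongest NMDA peaks, the protein-coding genes most like them were found by the distance in log2 strength of the strongest NMDA and the strongest resting peak within 50 kb, over the 2 lists. Jun had 55.4 in the NMDA list and 72.0 in the resting list. The genes nearest to it were Dab1 (NMDA 53.2, resting 72.0, distance 0.057), Cadm1 (NMDA 54.8, resting 68.6, distance 0.072) and Irf2bpl (NMDA 61.2, resting 78.2, distance 0.19). Jund had 37.4 in the NMDA list and 58.8 in the resting list, at different sites. The NMDA value is from the peak inside Jund, where the resting peak had 27.7. The resting value is from the Lsm4 site, where the NMDA peak had 23.3. By these values Jund was nearest to Gsk3a (NMDA 37.1, resting 57.2, distance 0.042). Dixdc1 and 2310030G06Rik (for both NMDA 38.0, resting 57.3, distance 0.042) were at about the same distance. Likeness over 2 lists is a description only.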

How the data were processed

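SMC1 ChIP-seq peaks of 2 conditions, each with 2 ChIP replicates, were used. Per the submitters' processing notes, the tools were FastQC, Trimmomatic, BWA, MACS2 and SAMtools and the builds mm10 and GRCm38.p6, with no versions or settings. Each deposited list has 20 unnamed columns laid out as IDR output. Columns 15 and 19 hold the deposited −log10 p per replicate, and column 8 equals their sum throughout; depth is unknown and was not corrected for. The deposited global IDR score (−log10) was used only to filter (0.01).

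Distances run from the nearest edge of a peak to the nearest end of a gene in the RefSeq table of GRCm38.p6, and 0 means overlap. Peaks of both lists were called overlapping from 1 bp. Strand and promoters came from the RefSeq promoter table. Percentiles, counts and exact intervals were computed with Python 3.11.15, pandas 2.3.3 and scipy 1.17.1, and figures drawn with matplotlib 3.10.9. Distance and overlap code was tested on simulated data. No significance test was made. All 9 genes are named, genes of the other lists where they have an NMDA peak (1 of them is not reported here), and Elk1 was named after its values were seen. For likeness, genes sharing a strongest peak with the AP-1 gene were left out. The members and lists were chosen with earlier results of these data known. Replicate columns carry no replicate number. Inputs entered only through the authors' own peak calling, if at all. Alternatives were other distances, a stricter IDR, lists of equal size, other overlap rules, single replicates and nearest genes only.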

Additional observations from a re-analysis of the deposited data

How the results depend on the processing

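Counts near AP-1 genes depended on distance and on list limits. Within 10 kb, 3 genes had an NMDA peak and 3 a peak in both lists, with 3 NMDA peaks and with 12 resting peaks of which 4 overlapped an NMDA peak, and median percentiles of 94.1 (NMDA) and 42.7 (resting). Within 2 kb these were 3, 3, 3, 11 and 4, with 94.1 and 43.2. Within 100 kb the NMDA median was 39.8. At an IDR up to 0.01 (350 NMDA and 7037 resting peaks), 2 genes, Jun and Jund, kept an NMDA peak (3.88% of all protein-coding genes). Both also kept a peak in both lists (3.37%), and 7 genes a resting peak (43.6%). There were 2 NMDA and 14 resting peaks, 2 overlapping, both at Jun, and medians of 84.6 (NMDA) and 63.6 (resting). With the resting list reduced to its strongest 1684 peaks, 3 genes (Fosb, Jun and Jund) had a resting peak (14.0% of all protein-coding genes). The same 3 had both (6.32%), with 5 resting peaks, 3 overlapping (29.3% of the reduced resting list). Counting a peak only where no other protein-coding gene was nearer, a choice made after seeing the data, left 4 NMDA and 12 resting peaks, 5 overlapping. For nearest genes only, and within 2 or 10 kb, no share over all peaks was computed for the overlaps. Nor was a share over all genes computed for a peak in both lists within 2 or 10 kb. These counts thus stand without a background. Single replicates gave medians of 48.1 to 58.9 (NMDA) and 49.5 to 52.9 (resting). The number of genes with a resting peak was 7 or 8 under all of these but the reduced list, and the other values under these settings were within 1.5 times of those reported. No paired analysis was possible because the replicate columns carry no replicate number and the results come from no test. Unknown depth limits every comparison of strength between the lists.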
